A study of Drosophila melanogaster with 4 samples.

Results

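The peaks described here are ORC2 binding peaks of the fly genome that lie in sequence labelled heterochromatic or unplaced, or at the ends of the large chromosome arms that face the centromere. They were chosen by position alone. They comprised every peak on chromosome 4, on the unplaced sequence U and on the scaffolds whose names end in Het. To these were added peaks with a midpoint beyond 20 Mb on 2L and X, beyond 20.5 Mb on 3L, and up to 2 Mb on 3R, in coordinates of genome release 5.1. The rule gave 109 of the 1386 peaks of replicate 1 (7.86%), 150 of the 1600 peaks of replicate 2 (9.38%) and 39 of the 540 regions of a series-level list (7.22%). They were set against the rest of 2L, 3L, 3R and X, which held 1020 peaks, 1136 peaks and 396 regions in the same lists. Arm 2R was in neither set.

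ORC2 was mapped by chromatin immunoprecipitation and sequencing (ChIP-seq) in whole embryos of mixed stages, 0 to 24 h old, with crude rabbit serum raised against the full-length protein. The labels describe 2 ORC2 ChIP samples and 2 input DNA samples. Files of the input samples were not analysed here, and the background in each class of sequence is therefore unmeasured. Whole embryos mix all cell types and cell-cycle stages, and the labels name no strain, genotype or treatment.

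ORC2 is a subunit of the origin recognition complex, which binds DNA and loads the replicative helicase MCM at sites where replication may start. In flies the complex also associates with the heterochromatin protein HP1 and is found in pericentromeric chromatin. Heterochromatin is rich in repeats, poor in genes and replicated late in S phase. Chromosome 4 is a small chromosome of largely heterochromatic character, and U collects sequence that the assembly assigned to no chromosome. No chromatin mark was measured in these samples. The name of a sequence and the position on it are therefore the sole ground for calling a peak heterochromatic. Below, heterochromatic peaks are all peaks taken by the rule, U and arm ends included. Arm ends gave 69 of the 109 in replicate 1, 79 of the 150 in replicate 2 and 26 of the 39 shared regions.

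Both replicates held peaks in every class of this sequence except XHet, where replicate 1 had none, and their counts differed most on U. Chromosome 4 carried 22 peaks in replicate 1 and 14 in replicate 2, and 6 shared regions. The Het scaffolds carried 14 peaks, 20 peaks and 4 regions. Of these, 3LHet held 4 and 9 peaks, 2RHet 4 and 5, 3RHet 4 and 3, 2LHet 2 and 2, and XHet 0 and 1. U held 4 peaks in replicate 1 and 37 in replicate 2, with 3 shared regions, and several results that rest on U are also given without it. At the arm ends, replicate 1 had 16 peaks on 2L, 22 on 3L, 22 on 3R and 9 on X. Replicate 2 had 18 on 2L, 29 on 3L, 24 on 3R and 8 on X. The shared regions numbered 8, 10, 7 and 1 on the same ends.

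The peaks on either side of each limit describe where the rule divides the arms. The score is the authors' own value for a peak, deposited without a unit, and is compared within a list. The sources used here do not say whether it has the same scale on every sequence of a list. On 2L the replicate 1 peaks next to the limit were at 20638594 to 20638660 inside (score 2.13) and at 19935212 to 19935375 outside (score 1.99). On 3L they were at 20785905 to 20785971 inside (2.89) and 20466443 to 20466544 outside (2.08). On 3R they were at 1834242 to 1834290 inside (2.39) and 2617246 to 2617548 outside (1.67). On X they were at 20107451 to 20107554 inside (2.37) and 19780948 to 19781450 outside (2.10). The nearest replicate 2 peaks inside scored 2.73 on 2L, 1.95 on 3L, 4.10 on 3R and 2.69 on X, and those outside scored 2.23, 2.36, 2.56 and 4.41. In the replicate lists, the peak nearest a limit was 10.7 to 638.6 kb away from it.

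ORC2 peaks were sparser at the arm ends than on the rest of the same arms. Replicate 1 had 7.98 peaks per Mb at the ends (exact Poisson 95% interval 6.21 to 10.1) and 11.9 per Mb on the rest (11.1 to 12.6), a ratio of 0.672 (exact interval 0.519 to 0.858). In replicate 2 the densities were 9.13 per Mb at the ends (7.23 to 11.4) and 13.2 on the rest (12.5 to 14.0), a ratio of 0.691 (0.543 to 0.869). Shared regions stood at 3.01 per Mb at the ends (1.96 to 4.40) and 4.61 on the rest (4.16 to 5.08), a ratio of 0.652 (0.421 to 0.970). The mean ratio over both replicates was 0.682 ± 0.013 (SD, n = 2). With 2 replicates, an exact two-sided sign test cannot give a p below 0.5, so differences are judged by 95% intervals, which cover counting error alone and take each peak as an independent event.

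Over the spans used, which stop at the outermost peak of each end, X contributed most to the lower density. The X end had 4.03 peaks per Mb in replicate 1 (1.84 to 7.65) and the rest of X had 12.7 (11.2 to 14.4), a ratio of 0.317 (0.143 to 0.612). In replicate 2 these densities were 3.58 (1.55 to 7.06) and 14.2 (12.6 to 15.9), a ratio of 0.253 (0.108 to 0.505). The single shared region of the X end gave 0.448 per Mb, against 5.04 on the rest of X, a ratio of 0.0888 (0.00223 to 0.506). Taken against the pooled ratio of 2L, 3L and 3R, the X ratio was 0.394 times as large in replicate 1 (0.170 to 0.815), 0.296 times in replicate 2 (0.121 to 0.625) and 0.102 times among shared regions (0.00246 to 0.642). All 3 of these intervals lie below 1, but they cover counting error alone, and the shared regions come from the same replicate peaks. Density also varied strongly outside the ends. On 2L the Mb lying 2 to 3 Mb outside the limit held 2 peaks in replicate 1 and 0 in replicate 2. The next Mb outwards held 14 and 26. Whether the X end differed from the other ends beyond such variation was not tested. X was singled out after the densities had been seen. Peak-free sequence left out of the spans may differ in length among the ends, and its part in the contrast of X was not tested.

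Over the spans used, the other ends did not differ from their arms beyond counting error. End over rest was 0.673 (0.378 to 1.12) and 0.649 (0.379 to 1.05) on 2L in replicates 1 and 2, 0.711 (0.438 to 1.10) and 0.923 (0.606 to 1.36) on 3L, and 1.05 (0.650 to 1.63) and 0.992 (0.626 to 1.50) on 3R. Against the other ends pooled, 3R was denser in replicate 1, by a ratio of 1.86 (1.05 to 3.21), but in replicate 2 the interval of 0.953 to 2.75 around 1.64 included 1. Without X, the ratio over the other arms was 0.805 in replicate 1 (0.608 to 1.05), 0.856 in replicate 2 (0.662 to 1.09) and 0.870 among shared regions (0.554 to 1.31), and each interval included 1. So did those with every limit moved 500 kb towards the centromere, at 0.798 (0.608 to 1.03), 0.821 (0.636 to 1.04) and 0.868 (0.560 to 1.29), and, among shared regions, those with limits moved away from it (0.735) or regions within 1 kb joined (0.684). Spans ran to the outermost peak of any list, since no arm lengths were used, and peak-free sequence beyond that peak was not counted. Counting it would lower the density of an end by an amount unknown here. The end ratios may thus be too high, and intervals that include 1 hold for these spans alone.

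**Figure D1:**
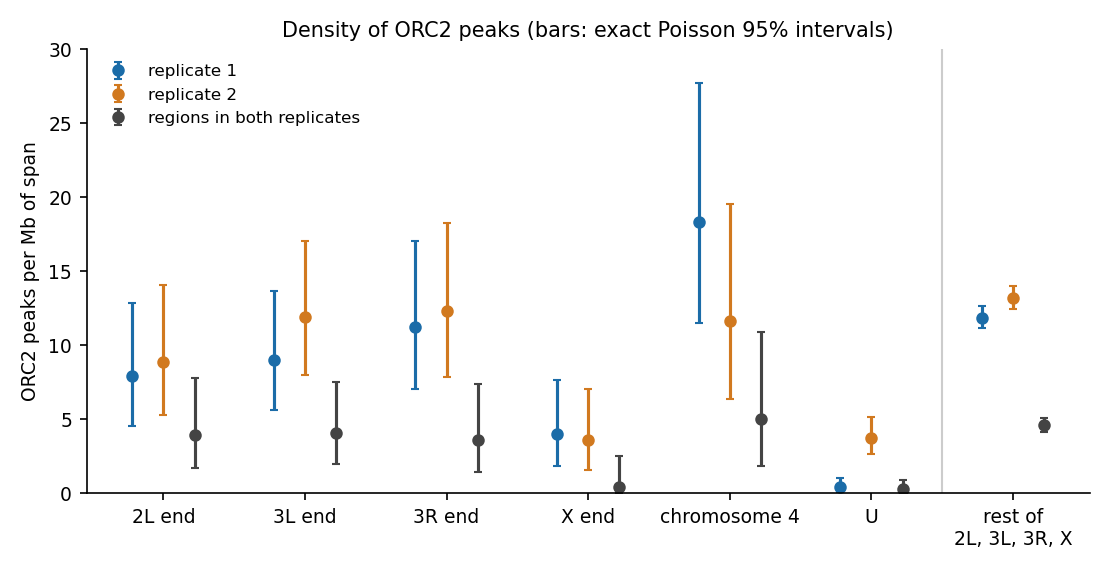
ORC2 peaks per Mb of span (y axis) for each arm end, chromosome 4, U and the rest of 2L, 3L, 3R and X (x axis), with exact Poisson 95% intervals as bars, in replicate 1, replicate 2 and the series-level list of shared regions. The X end, at 4.03 and 3.58 peaks per Mb, lies below the rest of the arms at 11.9 and 13.2, while chromosome 4 lies above it in replicate 1 (18.3) and not in replicate 2 (11.6).

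On X the Mb just outside the limit held the most peaks of the 5 Mb examined outside it. In replicate 1 the first and second Mb inside the X limit held 3 and 6 peaks, and the 3 Mb outside, from the limit outwards, held 20, 7 and 9. In replicate 2 the 2 inner bins held 5 and 2 peaks, and the same 3 bins outside held 28, 12 and 14. In replicate 1 the second Mb inside (6 peaks) was close to the second Mb outside (7 peaks). The largest gap between neighbouring peaks at the X end was 639 kb in replicate 1 and 1016 kb in replicate 2, against at most 548 and 620 kb anywhere on the rest of X. Longer gaps occurred on the rest of other arms, up to 771 kb on 3R in replicate 1 and 1315 kb on 2L in replicate 2. The X-end gap of replicate 2 ran from 21216343 to 22232086. Within it, replicate 1 had peaks at 21221268 to 21221336 (score 3.03), 21244958 to 21245065 (2.47) and 21883829 to 21883922 (2.30). On the other arms the Mb just inside and just outside differed less. In replicate 1 they held 6 and 8 peaks on 2L, 11 and 8 on 3L, and 13 and 8 on 3R, and in replicate 2 they held 5 and 11, 16 and 19, and 8 and 11 peaks. Between 21210674 and 21221336 lay 3 of the 9 replicate 1 peaks and 1 of the 8 replicate 2 peaks of the X end. That stretch held the one region of the X end found in both replicates.

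**Figure D2:**
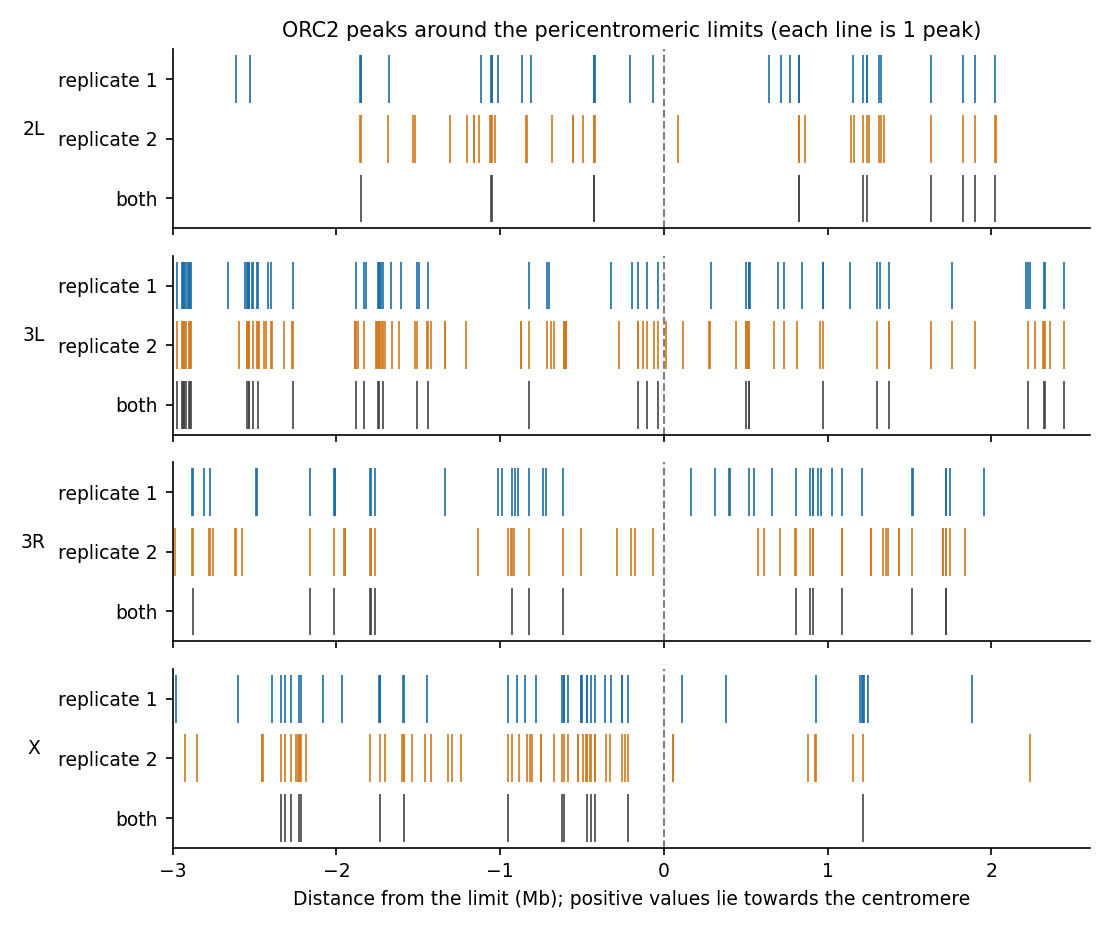
Position of every ORC2 peak within 3 Mb outside and up to the end inside the pericentromeric limits of 2L, 3L, 3R and X, as distance from the limit in Mb (x axis, positive towards the centromere), with 1 line per peak in replicate 1, replicate 2 and the list of regions found in both. On X the 3 Mb outside the limit hold, from the limit outwards, 20, 7 and 9 peaks in replicate 1 and 28, 12 and 14 in replicate 2, and the first Mb inside holds 3 and 5. On 2L, 3L and 3R the first Mb inside holds 6, 11 and 13 peaks in replicate 1 and 5, 16 and 8 in replicate 2.

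Chromosome 4 did not differ from the large arms in density beyond counting error. Its density was 18.3 peaks per Mb in replicate 1 (11.5 to 27.7) and 11.6 in replicate 2 (6.37 to 19.5), with 4.99 shared regions per Mb (1.83 to 10.9). The ratio to the rest of the large arms was 1.54 in replicate 1 (0.962 to 2.35), 0.881 in replicate 2 (0.480 to 1.49) and 1.08 among shared regions (0.395 to 2.38), and each interval includes 1. Among peaks above the median score of replicate 1 the ratio was 2.50 (1.47 to 3.98). Replicate 1 peaks on chromosome 4 had a median score of 2.69 (95% interval of the median 2.39 to 2.99), against 2.19 on the rest (2.15 to 2.24), and a median width of 97 bp (63 to 129), against 139.5 bp (133 to 148). Replicate 2 did not show the higher score, and its smaller width had an interval that overlapped that of the rest. There the median score on chromosome 4 was 2.34 (2.15 to 2.70), against 2.46 on the rest (2.40 to 2.50), and the median width 56.5 bp (41 to 287), against 92 bp (87 to 97).

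Heterochromatic peaks of replicate 2 were found again in the other sample less often than peaks on the rest, a difference that was not clear of 0 without U. A peak counted as matched when it shared at least 1 bp with a peak of the other replicate, which 39.0% of all replicate 1 peaks and 34.1% of all replicate 2 peaks did. Of the heterochromatic peaks, 39 of 109 in replicate 1 were matched (35.8%, Wilson 95% interval 27.4 to 45.1), against 396 of 1020 on the rest (38.8%, 35.9 to 41.9), a difference of -3.04 percentage points (-11.9 to 6.75). In replicate 2, 39 of 150 heterochromatic peaks were matched (26.0%, 19.6 to 33.6), against 401 of 1136 (35.3%, 32.6 to 38.1), a difference of -9.30 points (-16.3 to -1.27). Without U the replicate 2 difference was -3.44 points (-11.8 to 6.03), and on U 3 of 37 peaks were matched (8.11%, 2.80 to 21.3). The replicate 2 difference was also not clear of 0 with limits moved 500 kb towards the centromere (-7.59 points) or among peaks up to the median width (-1.56 points). Above the median width it was -18.6 points (-29.0 to -6.97). Peaks above the median score differed in both replicates, by -14.8 points in replicate 1 (-24.0 to -2.13) and -12.8 points in replicate 2 (-21.7 to -1.19). In replicate 1 the direction turned above the median width (8.89 points, -6.32 to 22.0). These cuts on width were added after seeing the data. None of the cuts on score or width was repeated without U. In replicate 2 the 3 matched peaks on U all scored below the median of the list, 2.46, so no peak on U above it was matched. With a tolerance of 1 kb, 51.3% of all replicate 1 peaks and 46.4% of all replicate 2 peaks have a partner. Of the heterochromatic peaks, 51 of 109 and 52 of 150 did (46.8% and 34.7%), against 528 of 1020 and 541 of 1136 on the rest (51.8% and 47.6%). The differences were -4.98 points in replicate 1 (-14.6 to 4.83) and -13.0 points in replicate 2 (-20.7 to -4.53). Without U, 49 of 113 heterochromatic peaks of replicate 2 had a partner within 1 kb (43.4%, 34.6 to 52.6).

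Matching ranged widely among the classes, on small numbers. The 2L end had the highest matched share of the classes with at least 5 peaks in both replicates, 8 of 16 peaks in replicate 1 and 8 of 18 in replicate 2. The X end had the lowest share of the arm ends, 1 of 9 and 1 of 8. Intervals of single classes were wide: 28.0 to 72.0% for the 2L end and 1.99 to 43.5% for the X end in replicate 1.

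**Figure D3:**
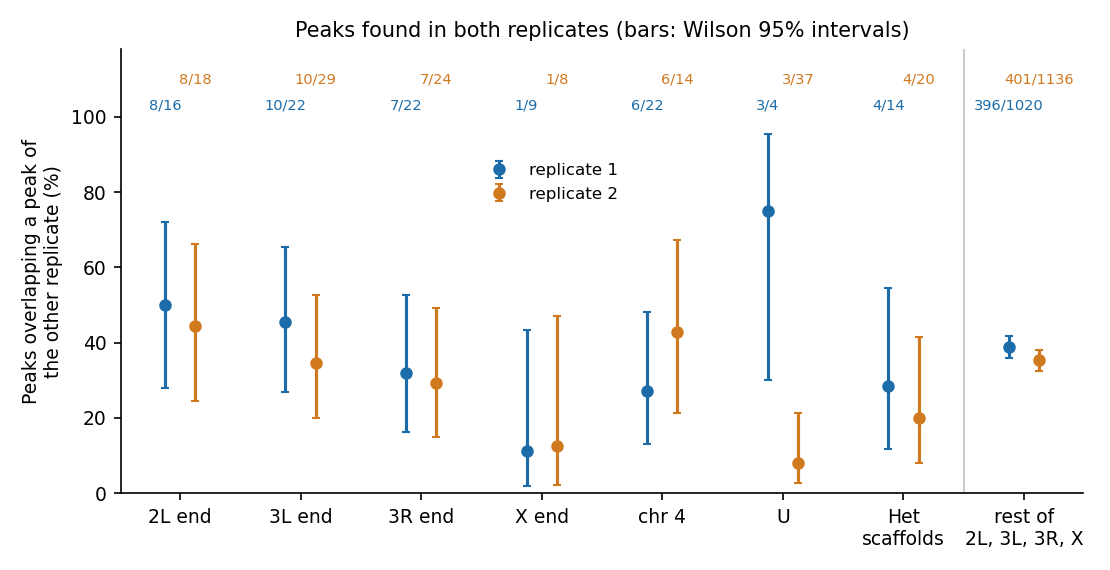
Percent of ORC2 peaks that overlap a peak of the other replicate by at least 1 bp (y axis) for each class of heterochromatic sequence and for the rest of 2L, 3L, 3R and X (x axis), with Wilson 95% intervals as bars and the counts above. Replicate 2 peaks on U, 3 of 37, fall below the rest at 401 of 1136; the intervals of the other classes in replicate 2 reach the share of the rest.

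Chromosome 4 carried 6 regions present in both replicates, spread along the chromosome from 89274 to 1010332. The highest mean score was that of the region at 529136 to 529290 (155 bp), with 2.87 in replicate 1 and 2.27 in replicate 2, or 2.57 ± 0.42 (SD, n = 2). The region at 509446 to 509656 (211 bp) scored 2.24 and 2.70. That at 89274 to 89448 (175 bp) scored 2.42 and 2.26. These regions scored near the median of the series-level list, 2.29. The region at 854747 to 855057 (311 bp) scored 2.74 and 1.90, that at 828412 to 828728 (317 bp) scored 1.93 and 2.70, and that at 1010172 to 1010332 (161 bp) scored 2.42 and 2.15. All 6 mean scores thus lay between 2.28 and 2.57, and 4 of the 6 scored lower in replicate 2.

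Shared regions on the Het scaffolds were mostly wide and low in score. The region on 2LHet at 190936 to 191765 was 830 bp wide and scored 1.70 in replicate 1 and 1.30 in replicate 2. On 2RHet, the region at 3182322 to 3182902 (581 bp) scored 2.14 and 1.35. On 3RHet, the region at 776762 to 777292 (531 bp) scored 2.22 and 1.57. Each of these was wider than at least 93.3% of all regions. The region on 3LHet differed from them. It lay at 601531 to 601625, was 95 bp wide and scored 3.08 and 2.91, a mean of 2.998 that ranked 60 of 540.

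On U, 2 of the 3 shared regions were the lowest-scoring of the whole list. The region at 4028260 to 4029948 was 1689 bp wide and scored 1.30 in replicate 1 and 1.54 in replicate 2. The region at 9095380 to 9096064 (685 bp) scored 1.40 and 1.55. Their mean scores were 1.42 and 1.48, and 95.8% and 92.8% of their length was covered by both replicates. The third region, at 8559202 to 8559400 (199 bp), scored 2.47 and 2.33.

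On the 3L end, the 3 highest mean scores belonged to regions that scored higher in replicate 2. The region at 21016510 to 21016761 (252 bp) scored 1.78 in replicate 1 and 4.45 in replicate 2. The region at 22817882 to 22818176 (295 bp) scored 2.05 and 3.61, and the region at 22828635 to 22828884 (250 bp) scored 2.08 and 3.57. The widest was at 21019344 to 21019873 (530 bp, scores 1.69 and 3.13). The region nearest the centromeric end was narrow, at 22941653 to 22941728 (76 bp), and scored 2.09 and 2.01.

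On the 3R end, the region with the highest mean score of all 39 was at 1108569 to 1108801 (233 bp), with 1.88 in replicate 1 and 4.55 in replicate 2, or 3.21 ± 1.89 (SD, n = 2). It ranked 35 of the 540 regions, and rests on replicate 2. The next was also the region nearest the centromeric end, at 278224 to 278388 (165 bp), with 1.81 and 3.96. Less than 1 kb away lay the region at 279033 to 279308 (276 bp), with 2.17 and 1.85. The widest, at 912752 to 913066 (315 bp), scored 1.47 and 1.64.

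On the 2L end, all 8 regions scored higher in replicate 2, by 0.33 to 1.06. The region at 21629217 to 21629485 (269 bp) scored 2.50 in replicate 1 and 2.84 in replicate 2. A pair of neighbours at 20821683 to 20821969 (287 bp) and 20823586 to 20824045 (460 bp) had almost equal means, 1.97 and 2.95 for one and 2.29 and 2.62 for the other. The widest was also the one nearest the centromere, at 22018907 to 22019442 (536 bp), and scored 1.53 and 2.36. The single region of the X end, at 21216229 to 21216396 (168 bp), scored 2.02 and 2.10.

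Most shared regions at the 2L and 3L ends scored higher in replicate 2, and most of those on chromosome 4 and the Het scaffolds scored lower. The 3R end and U did not follow, so the count over arm ends rests on 2L and 3L. Of 26 shared regions at arm ends, 21 scored higher in replicate 2 (80.8%, Wilson 62.1 to 91.5), which were 8 of 8 at the 2L end, 9 of 10 at the 3L end, 3 of 7 at the 3R end and 1 of 1 at the X end. On chromosome 4, U and the Het scaffolds, 4 of 13 did (30.8%, 12.7 to 57.6), which were 2 of 6, 2 of 3 and 0 of 4. On the rest of the large arms it was 266 of 396 (67.2%, 62.4 to 71.6). The interval for chromosome 4, U and the Het scaffolds lies below those of the arm ends and of the rest. The median score of all peaks was 2.19 in replicate 1 and 2.46 in replicate 2, and because the scores of the 2 lists have no stated common unit, these counts describe the lists. The split was noticed after the values had been seen.

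**Figure D4:**
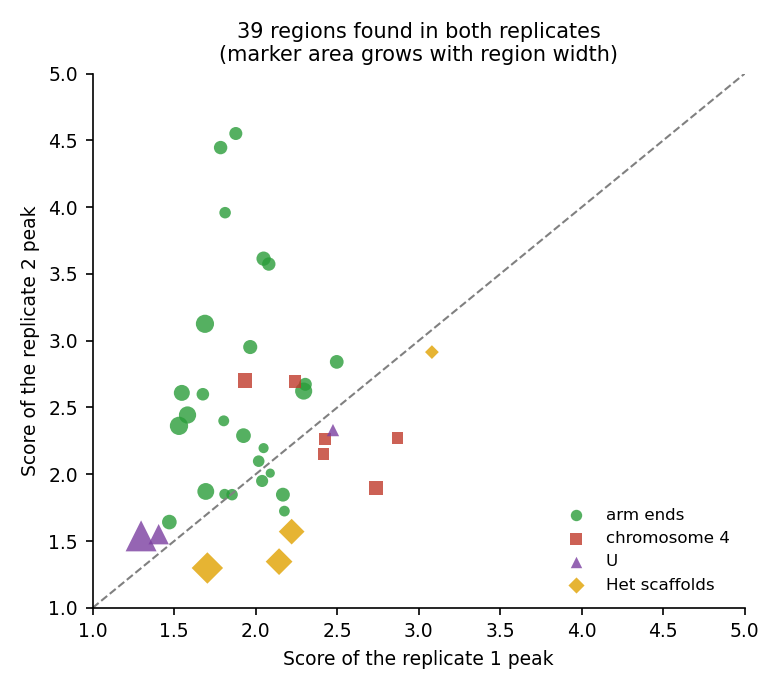
Score of the replicate 2 peak (y axis) against that of the replicate 1 peak (x axis) for the 39 heterochromatic ORC2 regions found in both replicates; marker area grows with region width and the dashed line marks equal scores. Of the 26 regions at arm ends, 21 lie above the line, and of the 13 on chromosome 4, U and the Het scaffolds, 4 do; the widest markers, on U and Het scaffolds, sit at low scores.

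Among peaks found in 1 replicate, heterochromatic sequence held some of the highest scores of either list. The highest-scoring of all 1386 replicate 1 peaks was on chromosome 4 at 397189 to 397233 (45 bp, score 6.72), and the next was on 2LHet at 47907 to 47954 (48 bp, 6.62). A peak on U at 3396131 to 3396149 (19 bp, 5.63) ranked 4. In replicate 2 the peak that ranked 2 of 1600 was on 3LHet at 2491274 to 2491327 (54 bp, 8.16), and a peak of 2 bp on the 3R end at 163402 to 163403 (6.77) ranked 5. None of these 5 peaks overlapped a peak of the other replicate. The nearest peak of the other replicate was 14.9 to 115 kb away. The best unmatched peaks of the other classes ranked lower. On 3RHet it was the replicate 1 peak at 1771248 to 1771276 (29 bp, 3.68) and on 2RHet the replicate 1 peak at 2912162 to 2912246 (85 bp, 3.41). On XHet it was the replicate 2 peak at 50522 to 50551 (30 bp, 3.85), the one peak of that scaffold. At arm ends the highest unmatched peaks were in replicate 2, at 21168880 to 21168914 on 3L (35 bp, 5.01), 20924914 to 20924975 on X (62 bp, 3.96) and 20822100 to 20822255 on 2L (156 bp, 3.33).

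The highest scores were more frequent on chromosome 4, U and the Het scaffolds than on the rest of the arms. Of these peaks, 6 of 40 in replicate 1 were among the highest-scoring 5% of the list (15%), against 51 of 1020 on the rest (5%), a difference of 10 points (1.92 to 24.1). In replicate 2 it was 8 of 71 (11.3%), against 53 of 1136 (4.67%), a difference of 6.60 points (0.982 to 16.1). Without U the differences were 8.89 points in replicate 1 (0.936 to 23.7) and 7.10 points in replicate 2, where the interval of -0.128 to 22.0 included 0. Arm ends had 0 of 69 and 4 of 79. Over all heterochromatic peaks, arm ends included, it was 6 of 109 in replicate 1, a difference of 0.505 points (-2.82 to 6.61). In replicate 2 it was 12 of 150, a difference of 3.33 points (-0.305 to 8.90). Of the 39 shared regions, 0 were in the highest-scoring 5% of their list, against 20 of 396. On chromosome 4, U and the Het scaffolds, none of the 6 and none of the 8 peaks was matched (0 of 6, Wilson interval up to 39.0%, and 0 of 8, up to 32.4%). On the rest, 16 of 51 (31.4%, 20.3 to 45.0) and 17 of 53 (32.1%, 21.1 to 45.5) of the highest-scoring peaks were matched, so the intervals overlap. These tails were examined after the extreme peaks had been seen. They take the score to have the same scale on every sequence of a list, which was not tested.

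The widest peaks were also more frequent there. In replicate 2, 16 of 71 peaks on chromosome 4, U and the Het scaffolds were among the widest 5% (22.5%), against 48 of 1136 on the rest (4.23%), a difference of 18.3 points (10.04 to 29.3). In replicate 1 it was 5 of 40 (12.5%), against 51 of 1020 (5%), a difference of 7.5 points (0.298 to 21.2). Without U, the replicate 2 difference was 10.5 points (2.12 to 25.9), and the replicate 1 difference, 3.33 points (-2.33 to 16.9), was no longer clear of 0, nor was it for the widest 10% (2.11 points). Of the 16 wide replicate 2 peaks, 11 were on U, and 14 were also among the lowest-scoring 5% of the list; on the rest 5 of 48 were. Wide peaks elsewhere were nearly always matched, 47 of 48 in replicate 2 (97.9%, 89.1 to 99.6), but 5 of these 16 were (31.2%, 14.2 to 55.6), among them 2 of the 11 on U. The lowest-scoring 5% of replicate 2 likewise took in 16 of the 71 peaks (22.5%), 10 of them on U, against 50 of 1136 (4.40%). Outside U, it held 1 of 14 peaks on chromosome 4 and 5 of 20 on the Het scaffolds, for which no interval was computed. Over all heterochromatic peaks without U, arm ends included, the lowest-scoring 5% took in 9 of 113, a difference of 3.56 points (-0.394 to 10.1). The lowest-scoring 5% of replicate 1 took in 2 of 40 (5%), against 49 of 1020 (4.80%). Of the wide replicate 1 peaks, 5 of 5 were matched, and 47 of 51 on the rest.

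Single wide peaks show the pattern. The widest peak of both lists was the same place on U, at 4028282 to 4029899 in replicate 1 (1618 bp) and at 4028260 to 4029948 in replicate 2 (1689 bp). It had the lowest score of replicate 1, 1.30. The lowest score of replicate 2, 1.27, belonged to an unmatched peak on chromosome 4 at 1288192 to 1289242, 1051 bp wide, the outermost peak of that chromosome. On U, replicate 2 alone had a peak of 855 bp at 1090929 to 1091783 (score 1.67) and one of 792 bp at 3133547 to 3134338 (1.49). These examples were chosen after their values were seen.

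**Figure D5:**
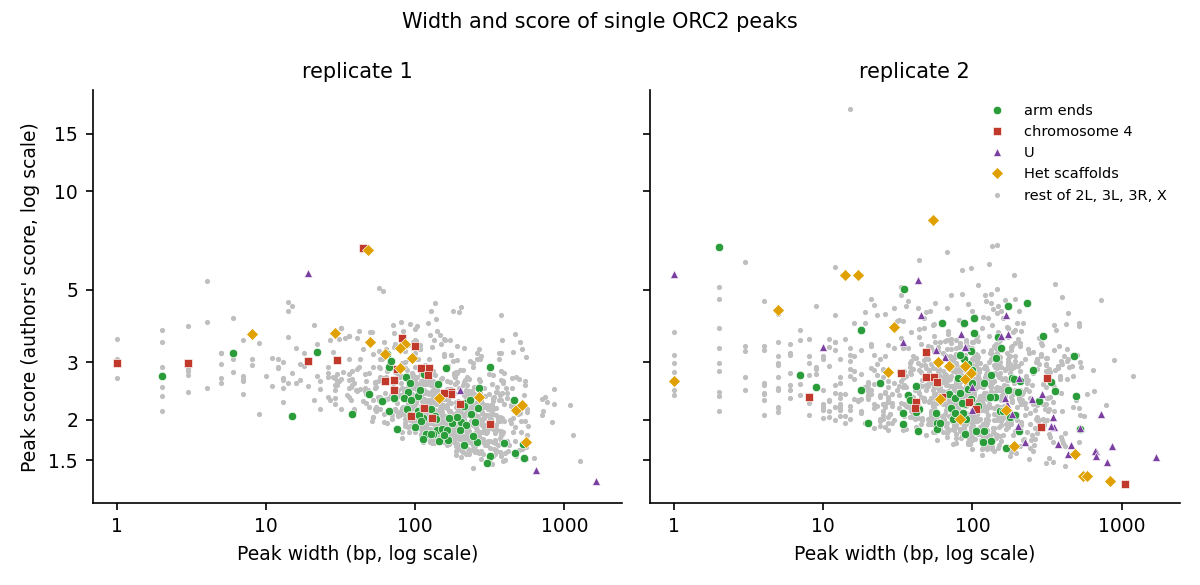
Peak width in bp (x axis, log scale) against peak score (y axis, log scale) for every ORC2 peak of replicate 1 and replicate 2, with arm ends, chromosome 4, U and Het scaffolds in colour and the rest of 2L, 3L, 3R and X in grey. Peaks of chromosome 4, U and the Het scaffolds reach both corners. Narrow peaks with high scores reach 6.72 in replicate 1, on chromosome 4, and 8.16 in replicate 2, on 3LHet. Wide peaks with low scores reach 1618 and 1689 bp, on U. Scores at arm ends reach 3.23 and 6.77. On the rest of the arms scores reach 5.32 and 17.9, and widths 1276 and 1184 bp.

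Medians of width and score did not separate heterochromatic peaks from the rest. The median width of all heterochromatic peaks was 115 bp in replicate 1 (104 to 142), against 139.5 bp on the rest (133 to 148), and 97.5 bp in replicate 2 (88 to 120), against 92 bp (87 to 97). Shared regions had a median width of 252 bp (191 to 317), against 242.5 bp (227 to 258). Median scores were 2.24 (2.13 to 2.39) against 2.19 (2.15 to 2.24) in replicate 1, 2.39 (2.29 to 2.60) against 2.46 (2.40 to 2.50) in replicate 2, and 2.12 (2.01 to 2.41) against 2.32 (2.27 to 2.38) among shared regions. All these pairs of intervals overlap, and the width and score differences changed sign between the replicates. In replicate 1, peaks on chromosome 4, U and the Het scaffolds alone had a higher median score of 2.80 (2.42 to 3.03) and a smaller median width of 94.5 bp (72 to 129) than the rest, whereas in replicate 2 their medians were 2.34 (2.15 to 2.70) and 100 bp (82 to 190), with intervals overlapping the rest. Of the 39 shared regions, 7 were in the upper 25% of the series-level list by score (17.9%, 8.98 to 32.7), against 105 of 396 (26.5%, 22.4 to 31.1).

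Peaks at arm ends had close neighbours less often in replicate 1. There, 22 of 69 had another peak of the list within 10 kb (31.9%), against 485 of 1020 on the rest (47.5%), a difference of -15.7 points (-25.9 to -3.57). In replicate 2 it was 35 of 79 (44.3%), against 601 of 1136 (52.9%), a difference of -8.60 points (-19.4 to 2.74), and among shared regions 6 of 26 (23.1%), against 133 of 396 (33.6%), a difference of -10.5 points (-23.5 to 8.99). The replicate 1 difference was not clear of 0 at 5 kb, -10.8 points (-20.2 to 1.01), or at 20 kb, -7.14 points (-19.1 to 4.62), and the direction turned at 5 kb in replicate 2 (0.642 points) and at 20 kb among shared regions (2.91 points). Ends also held fewer peaks per Mb, and the part of density in this difference was not tested. On chromosome 4, 12 of 22 and 6 of 14 peaks had such a neighbour (54.5% and 42.9%), and on the Het scaffolds 2 of 14 and 5 of 20.

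Joining the peaks of both replicates within 1 kb gave 188 heterochromatic loci, of which 43 held peaks of both (22.9%, 17.4 to 29.4), against 429 of 1442 on the rest (29.8%, 27.4 to 32.2). Without U it was 40 of 154 heterochromatic loci (26.0%, 19.7 to 33.4). Chromosome 4 had 7 of 24 loci in both, the X end 2 of 13 and U 3 of 34. When peaks within 10 kb were joined, the most crowded heterochromatic locus was at the 3L end, from 21002001 to 21027741, with 5 peaks of replicate 1 and 6 of replicate 2, and 3 of the 10 shared regions of that end. On 2L, 6 peaks lay in 2.36 kb from 20821683 to 20824045, with 3 from each replicate. Chromosome 4 had its most crowded locus at 523486 to 529290, with 3 and 2 peaks, which includes the highest-scoring shared region of that chromosome. On 3LHet, 2 and 3 peaks lay between 596275 and 605376, around the one narrow, high-scoring shared region of the Het scaffolds.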

How the data were processed

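Peak lists of 2 ORC2 ChIP samples and of the whole series were used. Per the file headers, coordinates are on FlyBase release 5.1 and peaks come from the caller PeakSeq, which scores ChIP reads relative to a control. Each score is the value the authors deposited, with no unit. The aligner, the placement of reads matching several sites, the PeakSeq settings and its control were not given in the sources used here. Every series-level region (540 of 540) was the union of overlapping replicate peaks with their mean score (tolerance 1e-05), so each is present in both replicates by definition. Depth is unknown, because read counts are not in the files. Replicates are numbered extractions that may not come from separate embryo collections, so their spread may be technical.

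Densities are peaks per Mb with exact Poisson intervals, and their ratios have exact conditional intervals. Shares have Wilson intervals, differences of shares Newcombe intervals, and medians order-statistic intervals. A difference was called where its 95% interval excluded no difference, or where the intervals of 2 medians were apart. No p-values were computed. Named regions were all shared regions on 4, U and Het scaffolds. At each arm end they were the 3 with the highest mean score, the widest and the one nearest the centromere. The highest-scoring unmatched peaks of each class were named too. Any further peak was picked with its values in view. The members and lists were chosen with earlier results of these data known. Alternatives were other overlaps, limits and score or width cuts. Leaving out each arm, the width cuts on matched shares, the cuts on tails and the comparisons restricted to chromosome 4, U and Het were added after seeing the data. Genes and sequences at the peaks were not analysed here, because no reference of release 5.1 was used. Calculations ran in SciPy 1.17.1, pandas 2.3.3 and NumPy 2.4.6 under Python 3.11.15, and figures were drawn with matplotlib 3.10.9.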

Additional observations from a re-analysis of the deposited data

How the results depend on the processing

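Of 126 values recomputed under alternatives, 89 kept their direction and, where one applied, their side of the threshold. The 126 include means over replicates with a replicate left out, which only restate the value of the other replicate and have no interval. The density ratio of arm ends to rest was no longer clear of 1 with limits moved towards the centromere (0.798 in replicate 1, 0.821 in replicate 2, 0.868 among shared regions), without X (0.805, 0.856 and 0.870), and, among shared regions, with limits moved away from it (0.735) or regions within 1 kb joined (0.684). The chromosome 4 ratio of replicate 1 exceeded 1 above the median score (2.50). The matched share difference of replicate 1 passed above the median score (-14.8 points), where that of replicate 2 passed too (-12.8 points). Both values include U. That of replicate 2 did not pass at arm ends alone (-2.39), without U (-3.44), with limits moved towards the centromere (-7.59) or up to the median width (-1.56). Replicate 1 medians differed from the rest for chromosome 4, U and Het scaffolds (-45.0 bp and 0.600 in score) and for chromosome 4 alone (-42.5 bp and 0.499). Neighbour shares of replicate 1 did not pass at 5 kb (-10.8) or 20 kb (-7.14). The excess of wide peaks in replicate 1 did not pass for the widest 10% (2.11) or without U (3.33), nor that of high scores in replicate 2 without U (7.10). Differences that were not past the threshold changed direction in 11 settings and remained short of it. The matched share difference of replicate 1 was 8.89 points above the median width. The width difference was -3 bp without U and -35.5 bp on chromosome 4 in replicate 2, and -10 bp with limits moved away and -49.5 bp on chromosome 4 among shared regions. The score difference was -0.12 at arm ends and -0.0467 above the median width in replicate 1, 0.155 up to the median width in replicate 2, and 0.0106 on chromosome 4 among shared regions. The neighbour difference was 0.642 points at 5 kb in replicate 2 and 2.91 at 20 kb among shared regions. With a replicate left out, the mean chromosome 4 ratio ran from 0.881 to 1.54, the width difference from -24.5 to 5.50 bp and the score difference from -0.0700 to 0.0459, each changing direction. The cause of these changes was not tested. No paired analysis was possible because the 2 ChIP samples form 1 group and the input samples had no file analysed here. Few peaks per class limit all comparisons of single classes.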

Other observations

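Scores that another peak of the same list carried to every deposited digit were less frequent in heterochromatic sequence in replicate 2, while the replicate 1 interval included 0. They occurred in 34 of 109 heterochromatic peaks of replicate 1 (31.2%), against 394 of 1020 on the rest (38.6%), a difference of -7.43 points (-15.9 to 2.24). In replicate 2 it was 55 of 150 (36.7%), against 558 of 1136 (49.1%), a difference of -12.5 points (-20.3 to -3.99). Peaks narrower than the read length of 36 nt numbered 11 of 109 (10.1%), against 91 of 1020 (8.92%), in replicate 1, and 21 of 150 (14.0%), against 221 of 1136 (19.5%), in replicate 2.

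For unmatched peaks the distance to the other replicate was also compared, with no test. In replicate 1, 17 of 43 unmatched peaks at arm ends had one within 10 kb (39.5%), against 274 of 624 on the rest (43.9%), and in replicate 2, 20 of 53 (37.7%), against 322 of 735 (43.8%). On chromosome 4 it was 6 of 16 and 3 of 8. On U, 2 of the 34 unmatched replicate 2 peaks had a replicate 1 peak within 10 kb, and the median distance was 976 kb along the coordinates of U, which need not be distances on a chromosome.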
